A study of Mus musculus with 6 samples.

Results

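The cell cycle genes described here are 50 of the 25595 genes in the deposited single-cell table, 24 with a role in S phase and 26 with a role in G2 and mitosis. They were taken by name, as known genes of DNA replication and of mitosis, and all 50 were present in the table. They were followed by library, by time, by annotated cell cluster and by the cell cycle phase that the authors assigned to each cell. The cells came from wild-type (wt) stembryos, aggregates of mouse embryonic stem (mES) cells given a pulse of the Wnt agonist Chiron, which then elongate and form trunk tissues. Whole stembryos were collected at 96 h (2 libraries) and at 120 h (2 libraries) after aggregation, and 1 further pool at 120 h was cut into an anterior part and a posterior part (1 library each). Stembryos that had failed to elongate were discarded at 120 h and not at 96 h, each library held pooled structures, and replicates are not said to be separate cultures, so p-values measure the spread between these libraries, which may be technical.

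The S members act in order. MCM proteins are loaded onto origins with the help of CDC6 and unwind DNA, PCNA and its partners hold the polymerases at the fork, ribonucleotide reductase and thymidylate synthase supply nucleotides, and CAF-1 and SLBP supply histones. The G2M members act later: cyclin B with CDK1 drives entry into mitosis, Aurora and Polo kinases and the kinetochore order chromosome attachment, and CDC20 directs the anaphase-promoting complex to destroy cyclins and securin. E2F factors are known to activate many S genes. The DREAM complex represses many G2M genes in G1 through a promoter element called CHR, often near CCAAT boxes bound by NF-Y, and B-MYB and FOXM1 then activate them with the MuvB core.

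Promoter letters were read from RefSeq windows (build GRCm38.p6) that run from 250 bases before to 50 bases after a start. A window was found for 42 of 50 members, and Aurkb, Ccna2, Ccne2, Gins2, Mcm4, Rfc2, Smc4 and Tpx2 are named only. E2F-like letters (TTTCCCGC, TTTCGCGC, TTTGCCGC or TTTGGCGC, on either strand) were held by 8 of 20 S members, 1 of 22 G2M members and 2.61% of 27025 genes. CHR letters (TTTGAA, either strand) were held by 16 of 22 G2M members, 2 of 20 S members and 20.2% of all genes. CCAAT, on either strand, was held by 18 of 22 G2M and 11 of 20 S members and by 41.1% of all genes, and none of the 3 motifs contains another. These matches are descriptions of letters and not binding sites. The 4 S members and the 4 G2M members with the highest mean level among those with the letters of their list before the start are shown, as the 190 bases before the start, because they let the E2F-like letters of replication genes be read beside the CHR letters of mitotic genes. Capitals mark E2F-like and CHR letters.
Mcm6: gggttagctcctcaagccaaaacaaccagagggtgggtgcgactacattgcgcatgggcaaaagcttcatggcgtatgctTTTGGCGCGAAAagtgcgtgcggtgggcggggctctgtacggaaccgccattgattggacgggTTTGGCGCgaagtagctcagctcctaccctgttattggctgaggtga
Mcm7: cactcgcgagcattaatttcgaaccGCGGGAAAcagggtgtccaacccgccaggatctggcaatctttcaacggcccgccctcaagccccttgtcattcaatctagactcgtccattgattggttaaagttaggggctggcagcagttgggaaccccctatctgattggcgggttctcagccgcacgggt
Hells: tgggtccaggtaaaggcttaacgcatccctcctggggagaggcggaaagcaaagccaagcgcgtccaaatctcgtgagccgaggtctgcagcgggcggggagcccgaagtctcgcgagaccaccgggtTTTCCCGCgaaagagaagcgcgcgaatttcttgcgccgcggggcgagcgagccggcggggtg
Cdca7: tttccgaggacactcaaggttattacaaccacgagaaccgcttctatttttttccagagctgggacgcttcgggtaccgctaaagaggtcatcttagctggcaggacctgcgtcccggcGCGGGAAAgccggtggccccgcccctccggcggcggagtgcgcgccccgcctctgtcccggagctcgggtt
Cdk1: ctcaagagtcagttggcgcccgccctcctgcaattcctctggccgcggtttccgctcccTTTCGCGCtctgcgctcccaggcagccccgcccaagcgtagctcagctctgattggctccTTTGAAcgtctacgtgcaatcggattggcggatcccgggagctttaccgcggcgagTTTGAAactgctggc
Top2a: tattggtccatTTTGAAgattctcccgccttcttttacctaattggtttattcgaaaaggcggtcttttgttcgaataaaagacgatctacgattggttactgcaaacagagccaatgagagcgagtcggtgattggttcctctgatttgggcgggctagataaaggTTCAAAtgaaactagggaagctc
Ube2c: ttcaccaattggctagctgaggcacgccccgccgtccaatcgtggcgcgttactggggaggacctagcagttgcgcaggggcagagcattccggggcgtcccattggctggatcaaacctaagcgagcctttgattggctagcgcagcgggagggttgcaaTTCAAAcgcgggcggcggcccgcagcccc
Cdc20: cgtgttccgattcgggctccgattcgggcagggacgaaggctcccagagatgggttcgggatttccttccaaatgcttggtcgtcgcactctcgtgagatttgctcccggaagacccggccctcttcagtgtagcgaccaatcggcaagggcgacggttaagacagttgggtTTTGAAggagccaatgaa

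These windows lie at chr1:128359706-128359895 for Mcm6 and chr5:138171884-138172073 for Mcm7, both on the minus strand, and at chr19:38930800-38930989 for Hells and chr2:72476029-72476218 for Cdca7, both on the plus strand. Those of the mitotic genes lie at chr10:69352913-69353102 for Cdk1, chr11:99024190-99024379 for Top2a and chr4:118437344-118437533 for Cdc20, on the minus strand, and at chr2:164769739-164769928 for Ube2c, on the plus strand. Mcm6, a subunit of the replicative helicase, held E2F-like letters 3 times, with first bases at -110, -106 and -47, where -1 is the base before the start. The matches at -110 and -106 lie on opposite strands and overlap in the same stretch of letters. In Cdk1, the mitotic kinase, 1 E2F-like match at -131 preceded 2 CHR matches at -71 and -15. Top2a, the topoisomerase that untangles sister chromatids, held CHR letters at -179 and -23, Ube2c, the ubiquitin-conjugating enzyme of the anaphase-promoting complex, at -29, and Cdc20 at -18. The CHR matches nearest the start therefore lay between -29 and -15 in all 4 mitotic genes shown, which were picked among those with such letters before the start. Among other G2M members the nearest match lay close by in Kif11 (-19) and Ccnf (-14). It lay at -98 in Mki67 and after the start in others, such as Cenpf and Plk1. The swing of a member over the cycle was taken as its level in S cells (S members) or in G2M cells (G2M members) over that in G1 cells. The median of this ratio was 1.55 for the 8 S members with E2F-like letters and 1.59 for the 12 without, and 2.86 for the 16 G2M members with CHR letters and 2.60 for the 6 without.

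Each of the 6 libraries had 2649 to 7887 cells, with 24303317 to 117580506 UMIs in all (unique molecular identifiers, 1 per captured transcript) and a median of 8723 to 22811 UMIs per cell. By the deposited annotation, batch 1 (V3 chemistry) holds replicate 1 of each time, batch 4 (V3.1) holds replicate 2 of each time, and batch 2 (V3) holds the dissected parts. Of the cell barcodes, 75 occurred in more than 1 library, at most 11 in any pair of libraries. Levels are UMIs of a gene over all UMIs of the cells summed, scaled to 1000000 (CPM), without further factors, and are compared for the same gene and not between genes. The S members together took 2681 and 3218 CPM in replicates 1 and 2 at 96 h, 2804 and 3438 CPM at 120 h, 3338 CPM in the anterior and 3429 CPM in the posterior part. The G2M members took 3614 and 3928 CPM at 96 h, 4143 and 4561 CPM at 120 h, 4436 CPM in the anterior and 3630 CPM in the posterior part. For the S sum the 2 replicates of a time therefore differed more than the 2 times of a batch did. For the G2M sum the 2 times of a batch differed more than the 2 replicates of a time did, and replicate 2 was higher at each time as well.

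The members were described by phase of the cycle. The authors had called G1, S or G2M for every cell from 2 scores, and the deposited phase followed from the signs and order of these scores in all 26968 cells. The list of 97 genes used for these scores (supplied with Seurat) holds 40 of the 50 members, so levels by phase partly restate how phases were called, and they are given with no test. Mcm2, Mcm3, Rpa2, Ccne1 and E2f1 among the S members, and Ccna2, Ccnb1, Ccnf, Plk1 and Bub1b among the G2M members, are not in that list. All 24 S members were highest in S cells and all 26 G2M members in G2M cells in each of the 6 libraries, the 10 members outside the list included. Of 7812 genes with a mean of at least 10 CPM, 7.6% were highest in S cells and 19.1% in G2M cells in all 6 libraries. A ratio to G1 cells above 1.2 in all 6 was found for 23 of 24 S members in S cells, against 1.57% of genes, and for 26 of 26 G2M members in G2M cells, against 3.33% of genes. Cells called G2M also held more UMIs than the others, with a median of 28264 against 20906 in G1 cells and 20675 in S cells of replicate 1 at 96 h, and the same order held against G1 in all 6 libraries.

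**Figure D1:**
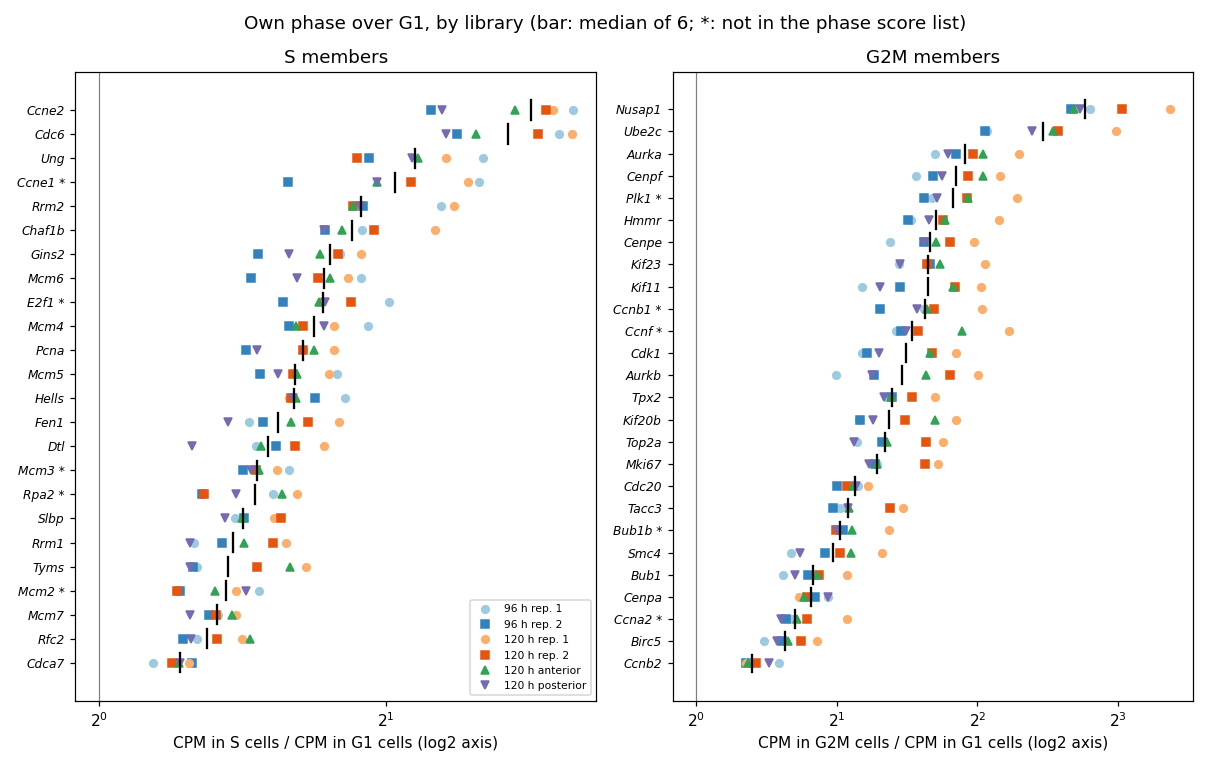
Level of each member in the cells of its own phase over its level in G1 cells, on a log2 axis, for S members (left) and G2M members (right). Points are the 6 libraries, black bars their median, and stars mark the 10 members that the phase score list does not hold. Medians run from 1.21 for Cdca7 to 2.84 for Ccne2 and from 1.32 for Ccnb2 to 6.80 for Nusap1, and every point lies above 1.

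Among the S members the ratio of S to G1 cells had a median of 1.60 and was largest for Ccne2, Cdc6 and Ung. Ccne2, a cyclin that activates CDK2 at this step, stood at 13.7, 31.5, 20.7, 34.4, 13.0 and 18.8 CPM in G1 cells and at 43.0, 70.3, 62.0, 101, 35.5 and 43.1 CPM in S cells (96 h replicates 1 and 2, 120 h replicates 1 and 2, anterior and posterior part). Cdc6, the helicase loader, went from 14.9 to 26.3 CPM in G1 cells to 46.1 to 68.6 CPM in S cells, and Ung, which removes uracil from DNA, from 38.1 to 79.2 to 77.0 to 169 CPM. For these 3 genes the median ratios were 2.84, 2.68 and 2.14. At the other end, Cdca7, an E2F-responsive partner of the remodeller HELLS, was at 108 to 182 CPM in G1 cells and 131 to 228 CPM in S cells, a median ratio of 1.21. Rfc2, a subunit of the clamp loader, and Mcm7 of the helicase had median ratios of 1.30 and 1.33. Of the members outside the score list, Ccne1, the sister cyclin of Ccne2, had the largest ratio at 2.04, followed by E2f1 with 1.72, Mcm3 with 1.47, Rpa2 of the single-strand binding complex with 1.46 and Mcm2 with 1.36.

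Levels of S members in G2M cells set the genes apart again. Relative to G1 cells, Ung was at 0.30, Ccne2 at 0.40 and Cdc6 at 0.55 of its level (medians of 6 libraries), whereas Rrm1 and Rrm2, the large and small subunit of ribonucleotide reductase, were at 1.13 and 1.03 and Tyms, thymidylate synthase, at 1.00. Over all 24 S members the median in G2M cells was 0.75 of G1. The nucleotide genes other than Ung thus kept the level of G1 cells in cells called G2M, while the helicase loader and cyclin E2 did not. This was not particular to nucleotide supply, since Rfc2, Cdca7 and Mcm7 were at 0.96, 0.93 and 0.92 of their G1 level.

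The G2M members swung more widely, with a median ratio of G2M to G1 cells of 2.69. Nusap1, a microtubule-bundling protein of the spindle, was at 20.1, 33.4, 21.0, 47.4, 43.6 and 23.5 CPM in G1 cells and at 140, 212, 217, 386, 280 and 156 CPM in G2M cells, in the same order of libraries, a median ratio of 6.80. Ube2c went from 130 to 244 CPM in G1 cells to 794 to 1034 CPM in G2M cells, and Aurka, the Aurora kinase of the spindle poles, from 23.8 to 32.7 to 97.5 to 128 CPM. Their median ratios were 5.52 and 3.75. The smallest ratio was that of Ccnb2, a B-type cyclin, at 70.6 to 146 CPM in G1 cells and 98.5 to 189 CPM in G2M cells, a median ratio of 1.32. Birc5, the survivin subunit of the chromosomal passenger complex, had 1.55 and Ccna2, cyclin A2, 1.62. Ccnb1, the other B-type cyclin, had 3.09, and Plk1, the Polo kinase, 3.54, both outside the score list, as were Ccnf with 2.90 and Bub1b of the spindle checkpoint with 2.04.

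The G2M members also differed in their level in S cells. Smc4 of condensin, Top2a, Cdk1 and the spindle motor gene Kif11 were at 1.11, 1.10, 1.10 and 0.99 of their G1 level. Cdc20, Ube2c, Hmmr of the spindle and Plk1 were at 0.47, 0.58, 0.60 and 0.61. Cells called G1 were far from empty of mitotic transcripts: the G2M members summed to 2020 to 2511 CPM in them, against 1574 to 2208 CPM in S cells and 5595 to 7261 CPM in G2M cells. Likewise the S members summed to 2425 to 3499 CPM in G1 cells, 3985 to 5183 CPM in S cells and 2004 to 2591 CPM in G2M cells.

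The share of cells in each phase was compared next. The share called G1 was 33.2% and 32.8% in replicates 1 and 2 at 96 h and 23.9% and 22.1% at 120 h, a mean difference of -9.99 percentage points. The share called S was 30.8% and 27.0% at 96 h and 34.6% and 37.8% at 120 h, and that called G2M 36.0% and 40.2% against 41.5% and 40.1%. The 96 h and 120 h libraries did not overlap in the G1 or the S share and overlapped in the G2M share, as deposited. An exact two-sided permutation test of 2 against 2 libraries cannot give a p below 0.333, which is its value for G1 and S (0.667 for G2M, and 0.5, 0.5 and 0.667 after Benjamini-Hochberg adjustment over the 3 shares). In the dissected pool 26.0% of anterior and 37.9% of posterior cells were called G1, 29.6% and 23.0% S, and 44.4% and 39.0% G2M, so the posterior part at 120 h lay above both 96 h libraries in its deposited G1 share. When scores were recomputed in each library with the same gene list, at least 90.4% of the cells of each library kept their phase, and the G1 share became 28.9% and 28.1% at 96 h and 24.2% and 28.1% at 120 h. With every cell thinned to 5000 UMIs, which leaves out 0 to 234 shallower cells per library, it was 37.9% and 37.5% at 96 h and 27.1% and 29.6% at 120 h. Within batch 4 the G1 shares of the 2 times thus differed by -10.6 points as deposited, by -0.0205 points when recomputed and by -7.82 points when thinned. The S share depended on the scoring as well: recomputed, it was 30.9% and 30.7% at 96 h and 34.6% and 29.5% at 120 h, which overlap, and the mean difference went from 7.31 points to 1.24 points, or 3.56 points when thinned. Within batch 4 the S difference was 10.8 points as deposited and -1.25 points when recomputed. In the anterior and posterior part the recomputed G1 share was 26.6% and 31.3%, and thinned it was 31.3% and 35.9%, so that the posterior part then lay below both 96 h libraries. The G2M share of these parts was 41.3% and 40.6% recomputed and 39.0% and 39.5% thinned, the last pair in the reverse of the deposited order.

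**Figure D2:**
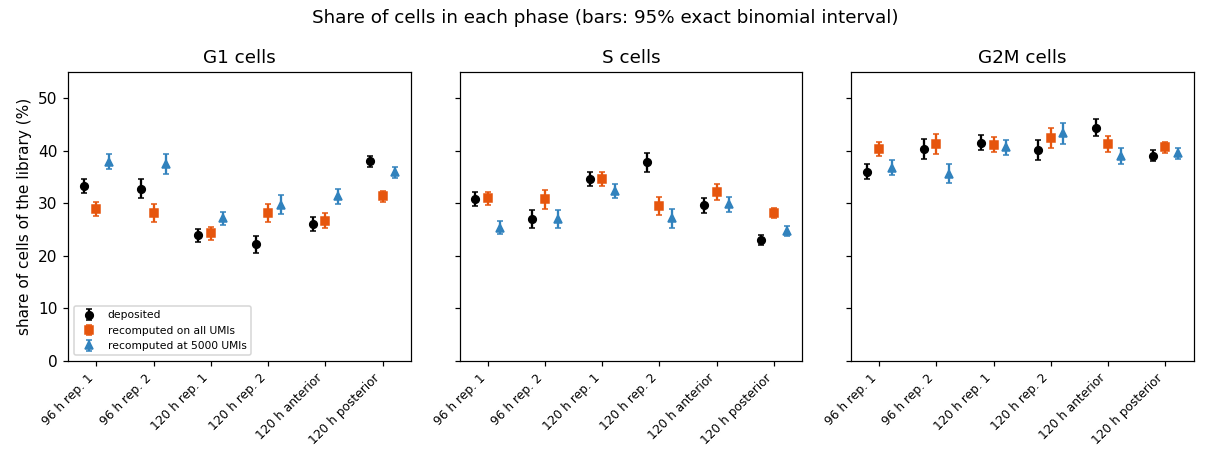
Share of cells (percent) called G1, S and G2M in each library, as deposited (black), recomputed with the same gene list on all UMIs (orange) and recomputed at 5000 UMIs per cell (blue). Bars are 95% exact binomial intervals, which cover counting error only, and the black G1 points run from 22.1% in replicate 2 at 120 h to 37.9% in the posterior part.

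The main comparison asked whether the members changed in level while the stembryo elongated from 96 h to 120 h. In whole libraries 0 of 50 members passed the quasi-likelihood test of edgeR at an adjusted p under 0.05, where 0.845% of 18114 genes did, and 0 members had an unadjusted p under 0.05. DESeq2 called 0 members as well. The log2 changes ran from -0.32 to 0.70, and a typical 95% interval reached 0.36 to either side. The median was -0.01 for the S and 0.11 for the G2M members, beside 0.02 for all genes tested. These medians moved with the libraries, to -0.11 and 0.13 without 120 h replicate 2 and to 0.13 and 0.080 with the dissected pool as a further 120 h sample, where the S median was the higher. Since equal replicate numbers mark a shared batch, the same test was run with the replicate number as a block, and then 6 of 50 members passed, or 12% of the members, where 17% of all genes did. The share among the members was thus no higher than that among all genes. In whole libraries a change in the shares of cell classes and a change within cells cannot be told apart.

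With the block 4 members rose and 2 fell, and all but 1 of the rising ones act in mitosis. Nusap1 stood at 68.6 and 115 CPM in replicates 1 and 2 at 96 h and at 116 and 199 CPM at 120 h, a log2 change of 0.69 ± 0.08 (SE, edgeR with the block, adjusted p = 0.00141). Mki67, whose protein coats mitotic chromosomes and marks proliferating cells, stood at 95.2 and 126 CPM and then at 130 and 201 CPM, a change of 0.48 ± 0.09 (edgeR adjusted p = 0.0126). Top2a stood at 351 and 451 CPM and then at 449 and 648 CPM, a change of 0.36 ± 0.09 (edgeR adjusted p = 0.0369). In Nusap1 and Mki67 both whole 120 h libraries were above both 96 h libraries, while in Top2a replicate 1 at 120 h lay just under replicate 2 at 96 h. Each of the 3 was higher at 120 h in both batches. Ccne2 was at 18.2 and 31.3 CPM and then at 28.2 and 48.4 CPM, a change of 0.55 ± 0.08 (edgeR adjusted p = 0.00516), and its times overlapped across batches. Ung was at 48.7 and 46.5 CPM and then at 40.2 and 40.4 CPM, a change of -0.32 ± 0.08 (edgeR adjusted p = 0.0388). Mcm2, a helicase subunit, was at 111 and 124 CPM and then at 101 and 98.3 CPM, a change of -0.31 ± 0.08 (edgeR adjusted p = 0.0427). For Ung and Mcm2 the whole 120 h libraries lay below both 96 h libraries. The dissected parts at 120 h, of another batch, did not follow for Ung, with 54.3 CPM in the anterior and 72.7 CPM in the posterior part, and with that pool as a further 120 h sample its change was 0.041. They did not follow for Ccne2 either, with 15.4 and 18.2 CPM, while Mcm2 was at 104 and 109 CPM. For Nusap1, Mki67 and Top2a only the anterior part lay above both 96 h libraries, at 161, 175 and 481 CPM. The posterior part was at 81.4, 96.2 and 351 CPM, below replicate 2 at 96 h for each of these genes. The sizes rest on few libraries: without replicate 2 at 120 h, in the fit without the block, the change was 0.35 for Nusap1, 0.24 for Mki67, 0.17 for Top2a, 0.21 for Ccne2 and -0.21 for Mcm2, and without replicate 2 at 96 h it was 1.01 for Nusap1 and 0.88 for Ccne2. Without replicate 1 at 120 h it was 0.98 for Nusap1, 0.83 for Ccne2 and 0.54 for Top2a, and without replicate 1 at 96 h it was 0.43 for Nusap1, 0.27 for Ccne2 and -0.20 for Ung.

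**Figure D3:**
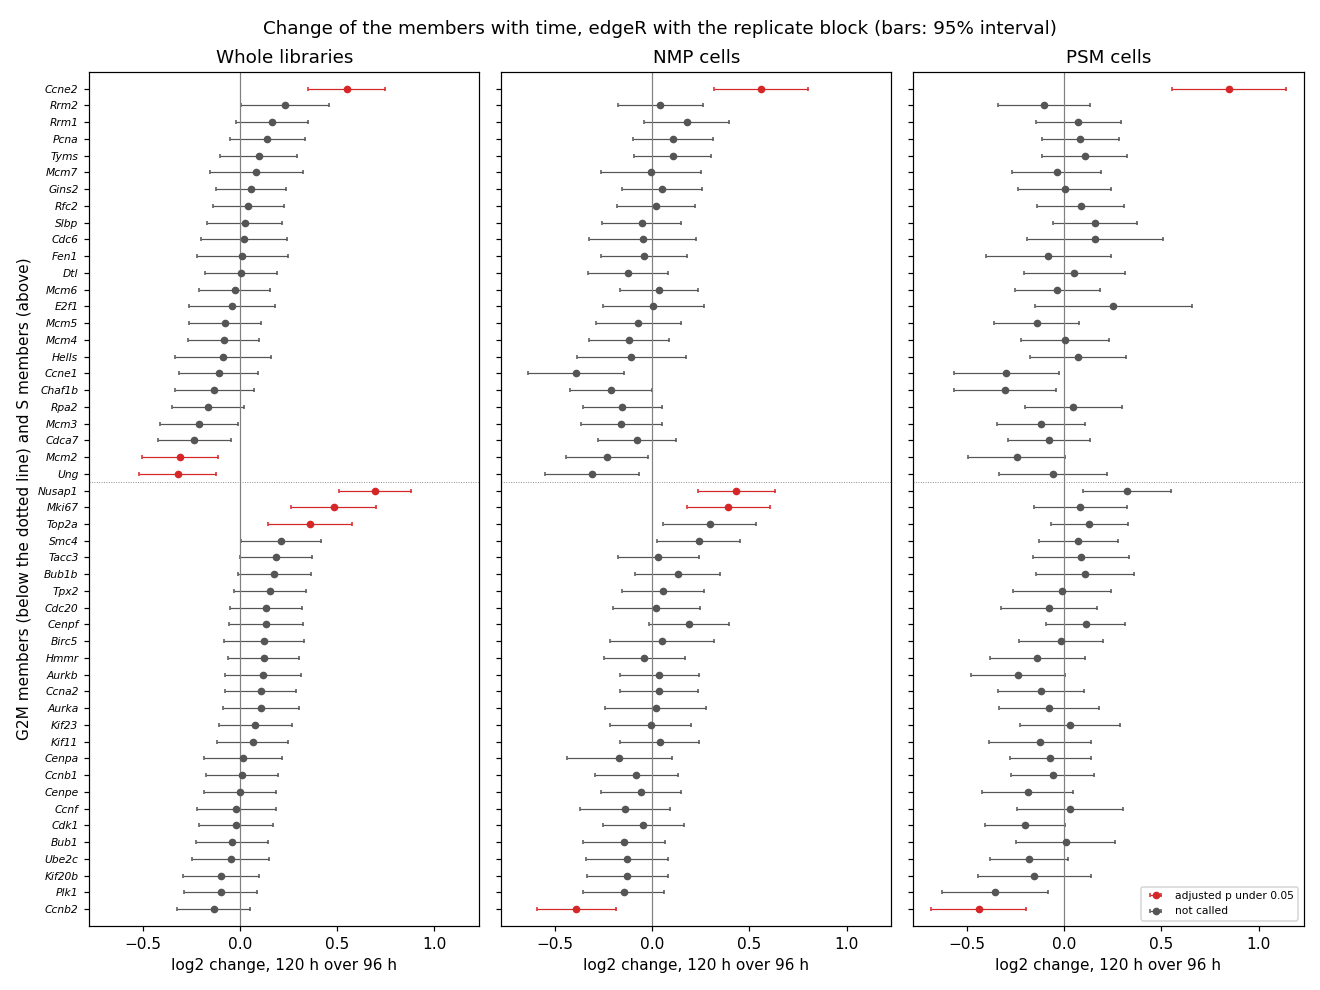
Log2 change from 96 h to 120 h of each member in whole libraries, NMP cells and PSM cells, from edgeR with the replicate block, with 95% intervals. Red points passed an adjusted p of 0.05 and grey points did not: 6 members in whole libraries, 4 in NMP cells and 2 in PSM cells.

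None of the other members passed, with or without the block, in whole libraries, and the values by library of the named ones are given here. Mcm7 was at 201 and 266 CPM at 96 h, then 202 and 331 CPM at 120 h, and Mcm6 at 122 and 206 CPM and then 127 and 212 CPM. In Mcm6 the values followed the batch at both times, while Mcm7 was higher at 120 h in batch 4 and alike at both times in batch 1. Hells, a chromatin remodeller needed for DNA methylation, was at 134 and 208 CPM and then 155 and 178 CPM. Cdca7 was at 157 and 198 CPM and then 138 and 181 CPM, and Ccne1 at 53.9 and 78.5 CPM and then 57.3 and 70.5 CPM. In these 5 genes replicate 2 was above replicate 1 at each time, and the times overlapped.

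A smaller batch difference was seen in the named genes of the fork and of nucleotide supply. It did not hold for Rrm1, which was at 97.6 and 138 CPM at 96 h, then 120 and 156 CPM at 120 h. Pcna, the sliding clamp, was at 318 and 353.9 CPM at 96 h, then 369 and 414 CPM at 120 h. Rfc2 was at 113 and 117 CPM and then 122 and 128 CPM. In both genes the whole 120 h libraries lay above the 96 h libraries, with blocked log2 changes of 0.14 ± 0.08 and 0.04 ± 0.08 that were not called. In the dissected parts Pcna was at 232 and 249.9 CPM, below both 96 h libraries. Rrm2 was at 211 and 196 CPM and then 240 and 265 CPM, and Tyms at 142 and 135 CPM and then 153 and 159 CPM, also without overlap between whole libraries and not called (edgeR with the block, adjusted p = 0.148 and 0.498). Slbp, which binds the end of histone mRNA, was at 185 and 193 CPM and then 194 and 213 CPM.

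Among the mitotic genes the batches differed in either direction. Cdk1 was at 261 and 205 CPM at 96 h, then 268 and 217 CPM at 120 h, Ube2c at 535 and 454 CPM and then 551 and 460 CPM, and Birc5 at 256 and 229 CPM and then 320 and 242 CPM. In these 3 genes replicate 2 was the lower library at each time. Ccnb1 was at 145 and 145 CPM and then 161 and 148 CPM, and Cenpa, the centromeric histone, at 254 and 268 CPM and then 290 and 268 CPM. Aurkb, the Aurora kinase of the passenger complex, was at 70.0 and 78.8 CPM and then 77.2 and 94.0 CPM. None of these 6 genes passed the test. Cdc20 was at 138 and 161 CPM and then 165 and 181 CPM, Smc4 at 210 and 224 CPM and then 243 and 290 CPM, and Tpx2, a spindle assembly factor, at 115 and 136 CPM and then 140 and 155 CPM. These last 3 were higher in both whole 120 h libraries than in either 96 h library, with blocked log2 changes of 0.13 ± 0.08, 0.21 ± 0.09 and 0.15 ± 0.08 that were not called. Cenpf of the kinetochore was at 240 and 290 CPM and then 276 and 338 CPM. Of all 50 members, 15 were higher in both whole 120 h libraries than in either 96 h library, and 3 were lower. The share of all genes without overlap between the times was not counted, so these counts have no background to be set against.

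Within cells called G2M the mitotic members were described apart from the share of such cells. In these cells 23 of 26 G2M members were higher at 120 h than at 96 h in both batches, and 0 were lower in both, beside 48.9% of 7939 genes that were higher and 28.2% that were lower in both. Ccnb2, Plk1 and Kif20b, the 3 exceptions, differed in direction between batches. The median ratio of 120 h to 96 h was 1.16 in batch 1 and 1.17 in batch 4, and the sum of the G2M members in G2M cells was 5729 and 5855 CPM at 96 h, then 6530 and 7261 CPM at 120 h. No test is given, since these genes helped to call the phase. In G1 cells the same sum was 2401 and 2394 CPM at 96 h, then 2020 and 2511 CPM at 120 h. The batches did not go the same way in the other phases. The median ratio of 120 h to 96 h of the G2M members was 0.78 in batch 1 and 1.04 in batch 4 in G1 cells. In S cells it was 1.15 and 0.99.

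The same comparison within neuromesodermal progenitors, the NMPs that feed both spinal cord and mesoderm of the growing axis, asked what changed inside 1 class of cells. Its cells are those the authors annotated as NMPs A, B and C, and their NMP marker list was the highest of the 10 lists looked at (1155, 1191 and 1015 CPM in A, B and C), with 0 of 7 markers at 0. In edgeR 0 of 50 members passed, where 0.00642% of 15584 genes did, and 1 member had an unadjusted p under 0.05. DESeq2 called 0. With the block 4 of 50 members passed, or 8%, beside 7.2% of all genes. Ccne2 was at 16.7 and 30.9 CPM at 96 h, then 27.6 and 46.4 CPM at 120 h, a log2 change of 0.56 ± 0.10 (edgeR with the block, adjusted p = 0.0260). Nusap1 was at 76.8 and 117 CPM and then 112 and 167 CPM, with 0.43 ± 0.08 (edgeR adjusted p = 0.0323), and Mki67 at 94.1 and 123 CPM and then 126 and 181 CPM, with 0.39 ± 0.09 (edgeR adjusted p = 0.0499). Ccnb2 fell with the block, from 88.6 and 104 CPM to 73.1 and 84.2 CPM, a change of -0.39 ± 0.08 (edgeR adjusted p = 0.0448). Its 120 h libraries lay below its 96 h libraries. Leaving out 1 library in the fit without the block moved the change of Ccne2 from 0.20, when the second 120 h library was missing, to 0.95, when the second 96 h library was, and that of Nusap1 from 0.19 to 0.69 for the same libraries. Mki67 was at 0.19 without replicate 2 at 120 h. RefSeq lists pseudogene copies of Ccnb1, Ccnb2, Tyms and Pcna, and reads shared with them could be split, so levels of these 4 are uncertain to that extent. The clusters differ between the times, since NMPs C had at least 50 cells only at 120 h, and NMPs A and B only at 96 h.

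Presomitic mesoderm (PSM), the tissue from which somites are cut, was summed over the early and late clusters, where the PSM marker list stood at 1333 and 1439 CPM with 0 of 6 markers at 0. In edgeR 0 of 50 members passed, where 0.433% of 12021 genes did, and 2 members had an unadjusted p under 0.05. DESeq2 called 0 here too. With the block 2 of 50 members passed, or 4%, beside 6.89% of all genes. Ccne2 was at 20.1 and 31.7 CPM at 96 h, then 36.8 and 68.4 CPM at 120 h, with 0.85 ± 0.13 (edgeR with the block, adjusted p = 0.00474), and it passed without the block in a fit that lacked the second 96 h library (1.09, edgeR adjusted p = 0.00386) and in one with no filter on low counts. Ccnb2 was at 73.3 and 103 CPM and then 60.6 and 77.6 CPM, with -0.44 ± 0.11 (edgeR adjusted p = 0.0423). Without replicate 2 at 120 h, in the fit without the block, the change of Ccne2 was 0.50. Mki67 was at 97.2 and 138 CPM and then 102 and 178 CPM, and Nusap1 at 57.6 and 107 CPM and then 77.5 and 147 CPM, and neither was called (edgeR with the block, adjusted p = 0.719 and 0.0967). Ccne2 therefore rose, and Ccnb2 fell, with the block in both classes of cells. The PSM sums also hold different clusters, since early PSM had at least 50 cells in both whole libraries at 96 h and late PSM in both at 120 h (427 and 110 cells).

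Whether the change with time differed between the classes was asked with an interaction term, in a fit where each library was its own block. None of 50 members passed in edgeR, where 1.56% of 14842 genes did, and 6 members had an unadjusted p under 0.05. The lowest was that of Mki67, whose change was lower in PSM than in NMP cells by a log2 of -0.33 ± 0.10 (edgeR adjusted p = 0.142). Without replicate 1 at 96 h Mki67 passed (edgeR adjusted p = 0.0363), and 0 members passed without any of the other 3 libraries.

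Other genes of the cycle were counted from fixed lists. In the edgeR fit without the block 0 genes of any list passed in whole libraries, NMP or PSM cells. Without the filter on low counts that fit called Cdkn1c, Cdkn2a, Rb1 and Tfdp2 in whole libraries, Cdkn1c and Cdkn2a in NMP cells and Cdkn2a in PSM cells. DESeq2 called the same 4 and Polr1b in whole libraries, Cdkn1c and Cdkn2a in NMP cells and 0 in PSM cells. Cdkn2a was also called in PSM cells with the dissected pool and without either 96 h replicate or 120 h replicate 2, Dscc1 in PSM cells without 96 h replicate 1, and Cdkn1c in whole libraries without 120 h replicate 1. With the block in whole libraries, where 17% of all genes passed, 2 of 24 further S genes of the score list rose and 1 fell, and 3 of 33 further G2M genes rose and 1 fell. Both counts lie under the share of all genes. Of 10 inhibitors and pocket proteins, 4 rose and 2 fell. Those that rose were Cdkn1c, the p57 inhibitor of cyclin-dependent kinases, with a log2 change of 1.33 ± 0.14 (edgeR with the block, adjusted p = 0.000883), Rb1, the retinoblastoma gene, with 0.91 ± 0.14 (edgeR adjusted p = 0.00524), Cdkn1b with 0.67 ± 0.14 and Rbl1 with 0.46 ± 0.10. Cdkn2a, the Ink4a and Arf locus, fell by 0.94 on the log2 scale (edgeR with the block, adjusted p = 0.00134), and Cdkn1a, the p21 inhibitor, by 0.43. Cdkn2a also fell and Cdkn1c also rose with the block in NMP cells (-1.37 and 1.14) and in PSM cells (-1.76 and 0.54), and Rb1 in NMP cells (0.72). Of 15 genes of E2F, MuvB, B-Myb and FoxM1, Tfdp2, a dimer partner of E2F, rose with 0.77 ± 0.09, as did E2f2 with 0.77 ± 0.17, and E2f4 fell by 0.33. Of 9 genes of CDK activation 1, Cdk6, fell. In NMP cells, where 7.2% of all genes passed with the block, 0 genes of the score list outside the members did, and in PSM cells, where 6.89% did, 1 fell.

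The annotated clusters were described next, with no test, since they were made from the same cells. The authors had regressed out the cycle scores before clustering, and clusters with at least 50 cells in a library are given. Spinal cord A cells had the lowest sum of G2M members of the 7 clusters in both whole libraries at 120 h, with 2699 and 3329 CPM, and 3461 CPM in the posterior part, where Somite A (3255 CPM, 68 cells) and Endoderm (3392 CPM) were lower. They had the highest sum of S members in the same 3 pools, with 3249, 3708 and 3615 CPM. NMPs C, the progenitors present in those pools, had 4162, 4356 and 3776 CPM of G2M and 2963, 3458 and 3438 CPM of S members. The label of Spinal cord A is not borne out by its markers alone. The NMP list, led by Cdx2, summed to 856 CPM in it, against 1015 CPM in NMPs C and 455 CPM in Spinal cord B. The spinal cord list summed to 246 CPM, against 190 and 478 CPM, with 0 of 6 spinal cord markers at 0 in each. Both lists hold Sox2, which led the spinal cord list in these 3 clusters and the NMP list in Spinal cord B, so the sums are not independent. In Spinal cord A 21 of 26 G2M members were lower than in NMPs C in all 3 pools, beside 36.4% of 7735 genes, and 15 of 24 S members were higher, beside 13.5% of genes. The median ratio for the G2M members was 0.59, 0.78 and 0.93 in the 3 pools, beside 0.94, 0.94 and 0.98 for all genes. Ccna2, Ccnb2, Cdc20, Cenpa and Hmmr were the G2M members that were not lower in all 3.

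The low mitotic level of Spinal cord A went with fewer cells called G2M, 21.99%, 24.1% and 35.5% in the 3 pools against 43.1%, 40.6% and 42.4% of NMPs C. Within cells called G2M the sum was 5503, 6538 and 5488 CPM in Spinal cord A and 6404, 6930 and 5695 CPM in NMPs C. The size of the difference varied with the pool: the ratio of the G2M sums was 0.65, 0.76 and 0.92. Spinal cord B had 4606, 4687 and 3742 CPM of G2M members, the last just under the 3776 CPM of NMPs C. As deposited, 11.5%, 17.4% and 33.3% of its cells were called G1, against 36.9%, 30.2% and 39.8% of Spinal cord A. Recomputed on all UMIs, these shares were 12.2%, 23.9% and 27.1% against 38.2%, 38.3% and 31.5%. Thinned to 5000 UMIs, they were 19.9%, 24.9% and 31.4% against 43.6%, 43.1% and 35.5%.

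**Figure D4:**
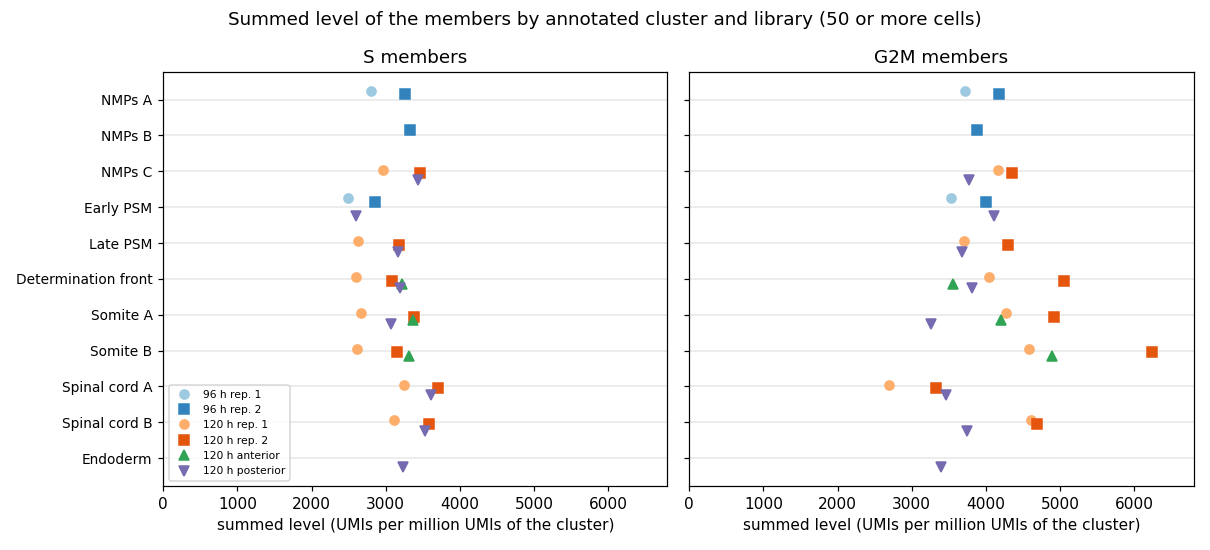
Summed level of the 24 S members (left) and of the 26 G2M members (right) in each annotated cluster, in CPM, with 1 point per library that held at least 50 of its cells. The G2M sum runs from 2699 CPM in Spinal cord A of replicate 1 at 120 h to 6235 CPM in Somite B of replicate 2 at 120 h.

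Somite B cells had G2M sums of 4576, 6235 and 4890 CPM in the 2 whole libraries at 120 h and the anterior part, the highest of the clusters except in replicate 1, where Spinal cord B was at 4606 CPM. Somite A, whose somite marker list stood at 1931 CPM against 1696 CPM in Somite B, had 4266, 4924 and 4199 CPM. In all 3 pools 25 of 26 G2M members, all but Cdc20, were higher in Somite B than in Somite A, beside 33.2% of 7872 genes, and 10 of 24 S members were lower, beside 13.3% of genes. The median ratio of the G2M members was 1.08, 1.24 and 1.16, beside 1.02, 1.04 and 1.06 for all genes. Replicate 2 at 120 h gave the largest value from 127 cells. Top2a was at 514, 855 and 521 CPM in Somite B, Ube2c at 617, 679 and 610 CPM and Cenpf at 269, 424 and 266 CPM. In Spinal cord A, in the 2 whole libraries and the posterior part, Top2a was at 240, 405 and 320 CPM, Ube2c at 258, 356 and 454 CPM, and Cenpf at 151, 239 and 220 CPM. Nusap1 and Mki67 followed the same order, at 152, 358 and 190 CPM and 152, 333 and 201 CPM in Somite B and at 52.9, 119 and 78.6 CPM and 61.1, 104 and 87.3 CPM in Spinal cord A.

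Of the S members with the highest level, Pcna was at 436, 478 and 265 CPM in Spinal cord A and at 331, 333 and 220 CPM in Somite B. Mcm7 was at 219, 332 and 438 CPM and at 199, 331 and 416 CPM. Rrm2 was at 270, 251 and 305 CPM and at 260, 307 and 311 CPM. Of these 3, Pcna was higher in Spinal cord A in each pool compared, Mcm7 hardly differed, and Rrm2 had no common order, although the third pool is the posterior part for Spinal cord A and the anterior part for Somite B. At 96 h, NMPs A and early PSM of replicate 1 had 2807 and 2490 CPM of S members and 3717 and 3528 CPM of G2M members, and those of replicate 2 had 3256 and 2858 CPM and 4183 and 4000 CPM.

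The dissected pool compared the anterior part, which holds somites, with the posterior part, which holds the growth zone and spinal cord. Each part is 1 library, so the difference has no replicate check and no p-value, and the exact Poisson intervals cover counting error only. Of the G2M members 25 of 26 were higher in the anterior part, beside 50% of 7678 genes, with Cdk1 as the exception (204 CPM anterior and 215 CPM posterior). Their median ratio was 1.16, with a range of 0.95 to 1.98, and 12 of 26 were above 1.2, beside 23.3% of genes. Of the S members 9 were higher and 15 lower, with a median ratio of 0.94. Only Rrm1 was above 1.2, and 3 of 24 were below 1/1.2, beside 22.9% of genes. The median over all genes was 1.00.

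The largest ratio was that of Nusap1, at 161 CPM in the anterior and 81.4 CPM in the posterior part, a ratio of 1.98. Mki67 was at 175 and 96.2 CPM, a ratio of 1.82, and Ccnb2 at 151 and 102 CPM, a ratio of 1.48. Tpx2 and Kif11 both had 1.44 and Top2a 1.37, at 481 and 351 CPM. The S members with the lowest ratios were Cdca7, at 98.5 CPM anterior and 174 CPM posterior, a ratio of 0.57, Ung with 0.75 and Mcm3 with 0.83. Rrm1 was at 152 and 122 CPM, a ratio of 1.24. Nusap1, Mki67 and Top2a had also risen with time under the block in whole libraries, but a high anterior ratio and a rise with time did not go together throughout. Ccnb2 fell with the block in NMP and PSM cells. Tpx2, Kif11, Cenpe (ratio 1.43) and Ccnf (1.40), all with a larger ratio than Top2a, were not called with time.

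**Figure D5:**
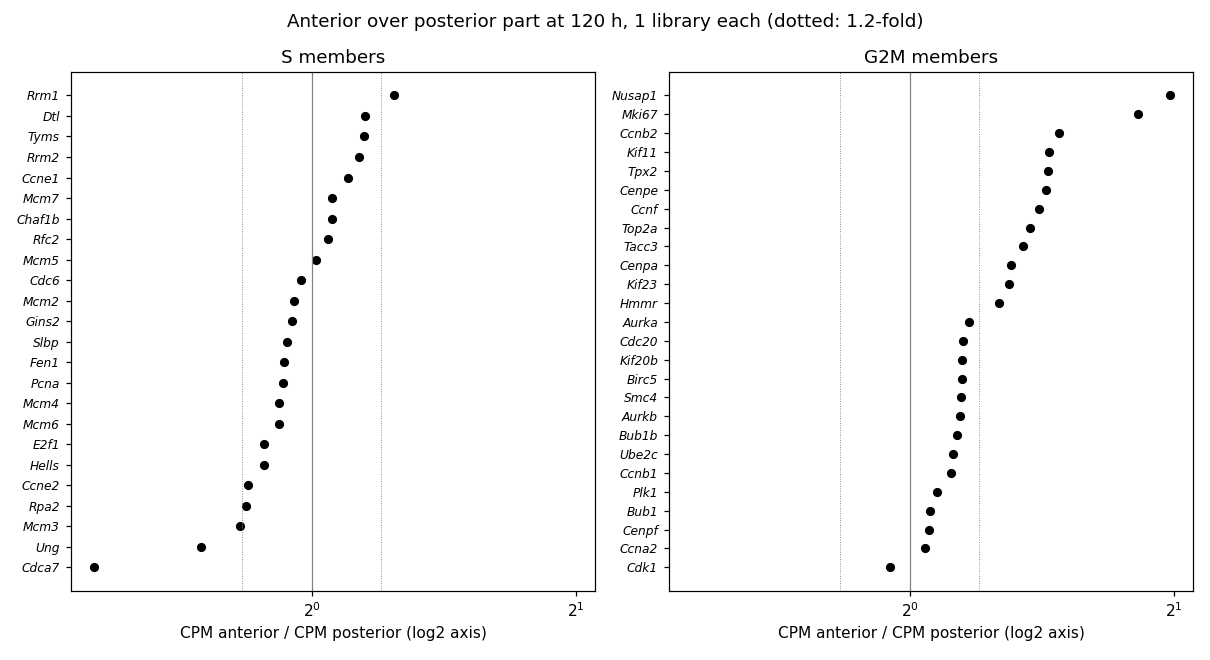
Level of each member in the anterior part over its level in the posterior part at 120 h, on a log2 axis, from 1 library each. Dotted lines mark 1.2-fold in either direction. G2M members (right) lie between 0.95 for Cdk1 and 1.98 for Nusap1, and S members (left) between 0.57 for Cdca7 and 1.24 for Rrm1.

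Composition and phase moved with this difference, and their part in it was not tested. The anterior part consisted mainly of Somite A and B (1881 and 1757 of 3944 cells) and the posterior part held 2897 Spinal cord A cells of 7887. The sum of the G2M members was 4436 and 3630 CPM, a ratio of 1.22. Within phases the ratio was 1.11 in G1, 1.27 in S and 1.196 in G2M cells. In the 2 clusters with at least 50 cells in each part it was 0.93 in the determination front (268 anterior and 1140 posterior cells). It was 1.29 in Somite A (1881 and 68 cells). The determination front is where PSM cells commit to somites. The cluster of that name is not set apart by its markers. Its somite list stood at 2016 CPM, against 1931 CPM in Somite A. Its determination front list stood at 168 CPM, against 185 CPM in late PSM. With the phases as deposited, the G2M sum was thus higher in the anterior part within each phase. Its difference took opposite directions in the 2 shared clusters. The ratios within phases were not taken with the recomputed phases. For the S members the ratio of sums was 0.97 in all cells, 0.96 in S cells, 1.01 in the determination front and 1.10 in Somite A.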

How the data were processed

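Single-cell libraries were made by the authors on the 10x platform from dissociated, pooled wild-type stembryos. Per the labels and the study's methods, reads were aligned to mm10 with Cell Ranger 6.0 and a modified Ensembl annotation, and cells were filtered and annotated with Seurat 4.0.2. The deposited table holds raw UMI counts per gene and cell. The deposited annotation holds, per cell, total and gene counts, the mitochondrial share as a percent, an S score and a G2M score that the authors computed, the phase, batch, chemistry and named cluster. The total count of each of the 26968 cells equalled that in the annotation, and cells lay between 0.302 and 2.48 times the mean of their library. Doublets were handled by the authors through an upper UMI limit and no caller was run. 

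UMIs were summed per library, cluster and phase. The times were compared in sums of whole libraries, of NMPs and of PSM cells with edgeR 4.0.16 (R 4.3.3, quasi-likelihood test, TMM, filterByExpr, Benjamini-Hochberg over all genes, called under 0.05), with the replicate number as a block in an alternative fit. The block rests on the annotation, where equal numbers share a batch, and replicate 2 deviated from replicate 1 in like manner at both times, across genes (r = 0.531, 0.527 and 0.415 for whole, NMP and PSM sums). It leaves 1 residual degree of freedom against 2. DESeq2 1.42.0 and the other alternatives are given in the closing section. The scripts were tested on simulated data. Phases were recomputed per library with log-normalized module scores (24 bins and 43 control genes per gene), on all UMIs and at 5000 UMIs per cell. Members were named by a rule: those called, the 2 of each of 11 role groups with the highest mean CPM, the 3 largest and smallest ratios by phase, the members outside the score list, and by cluster the 3 highest of each list. The comparisons of Spinal cord A with NMPs C and of Somite B with Somite A, and Nusap1 and Mki67 by cluster, were chosen after their values were seen. The members and lists were chosen with earlier results of these data known.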

Additional observations from a re-analysis of the deposited data

How the results depend on the processing

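Of the members called in whole libraries, NMP cells and PSM cells, the counts without the block (0, 0 and 0) became 6, 4 and 2 with the replicate block. In PSM cells the count was 1 (Ccne2) with no filter on low counts. Leaving out 1 library at a time gave 0 to 0 calls in whole libraries, 0 to 0 in NMP cells, 0 to 1 in PSM cells (1 without 96 h replicate 2) and 0 to 1 for the interaction of class and time (1, Mki67, without 96 h replicate 1), where a time left with 1 library takes its spread from the other time. Size factors of DESeq2 in edgeR, no normalization factors, the DESeq2 test, the dissected pool as a further 120 h sample and a limit of 1.5 times the library mean left all 3 counts at 0. With the dissected pool the log2 change of Ung in whole libraries was 0.041 in place of -0.32, and the cause was not tested. Without normalization factors the median of all genes moved to 0.11 in PSM cells and 0.10 in whole and NMP sums, and the medians of the S and G2M members moved with it, to 0.07 and 0.18 in whole libraries. The S median was -0.11 without 120 h replicate 2 and 0.13 with the dissected pool. With the limit of 1.5 times the mean the G2M median was 0.04 in whole libraries.

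The difference in the G1 share between 120 h and 96 h was -9.99 percentage points as deposited, -9.32 with cells thinned to 5000 UMIs and -2.32 when recomputed on all UMIs, and the cause was not tested. Own-phase maxima were the same when only members outside the score list were counted. The ratio of G2M sums of Spinal cord A to NMPs C was 0.78 on average, 0.81 under the stricter limit and 0.79 without Ube2c. It moved by less than its SD over the pools (0.13). The median anterior to posterior ratio of the G2M members stayed within a fixed tolerance under the stricter limit, chosen after seeing the data. With 1 library per part it has no spread to be set against. Over all genes the calls, 153, 1 and 52 in whole, NMP and PSM sums, became 3088, 1122 and 828 with the replicate block, 1199, 1010 and 528 with no filter, 1155, 446 and 169 with DESeq2 and 514, 22 and 184 with the dissected pool, and leaving out a library gave 100 to 399, 0 to 292 and 23 to 545. Higher and lower calls numbered 105 and 48 in whole libraries and 97 and 25 without normalization factors. Depth limited single members: the sums of PSM cells in replicate 2 at 120 h rest on 1314910 UMIs.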
